A study of Mus musculus with 10 samples.

Results

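Germinal vesicle oocytes from mice that delete Setdb1 during oocyte growth were compared with oocytes that carry the same Setdb1 alleles and no Cre. The study holds 10 RNA-seq libraries, and this comparison uses 6 of them, chosen by genotype: 4 Setdb1 f/-; Zp3-cre libraries, called mutants here, and 2 Setdb1 f/- libraries. Both groups carry 1 floxed allele (f), which Cre can cut, and 1 allele that is already lost (-). In the usual notation the - allele is lost in every cell of the animal, so the f/- oocytes and the ovaries around them had 1 working copy. Zp3-cre is a transgene driven by the promoter of a zona pellucida gene, which is active in growing oocytes. Because the groups differ in the transgene as well as in the deletion, the effects of Cre and of the loss of Setdb1 cannot be told apart from these 6 libraries. The other 4 libraries came from f/+; Zp3-cre mice, which have Cre and a wild-type allele, and their values are given beside those of the comparison. All mice were of the C57Bl/6J strain, and each library was made from a pool of 16 oocytes of 1 mouse, freed of their surrounding cells and kept from resuming meiosis with milrinone.

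SETDB1 is a histone methyltransferase that places the silencing mark H3K9me3. It is brought to DNA by KRAB zinc finger proteins through TRIM28 and is best known for keeping retrotransposons, and genes near them, silent. In a growing oocyte, transcripts are made and stored for use after meiosis resumes, and in the fully grown oocyte transcription stops, so the RNA measured is largely what growth left behind.

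Levels are RPKM, reads scaled to the length of the transcript and the total of the library, and changes are differences of log2(RPKM + 0.5) with the standard error (SE) of the linear model. A gene is said to have risen or fallen where the adjusted p-value of limma's test over 11364 genes was below 0.05. A gene is called separated where all 4 mutants lay above, or all below, both f/- libraries.

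Setdb1 itself was measured at 4.06, 2.55, 3.32 and 1.31 RPKM in the mutants and at 19.9 and 26.3 RPKM in the f/- libraries. The highest mutant lay far below the lower f/- library, and the mutant mean was 12.2% of the f/- mean. The change was -2.90 ± 0.43 (SE; limma, adjusted p = 0.0134). The call was lost in 5 of 17 alternative analyses (limma, adjusted p from 0.00103 to 0.186), among them those without f/- replicate 1, f/- replicate 2, mutant replicate 2 or mutant replicate 3. An exact two-sided permutation test of the 15 ways to split these libraries gave p = 0.0667, the smallest that 4 against 2 allow. In the f/+; Zp3-cre libraries Setdb1 was measured at 28.6, 25.7, 25.1 and 52.5 RPKM, above the mutants in each. Setdb1 lies on the minus strand at chr3:95323525-95357202 (GRCm38), and exons of Cers2 and Gm37500 overlap it on the opposite strand, whose reads a library without strand marks cannot separate.

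Oocyte markers dominated every library. The summed level of 10 oocyte genes (Zp1, Zp2, Zp3, Gdf9, Bmp15, Nobox, Figla, Oosp1, Dppa3 and Npm2) was 5682 to 5778 RPKM in the mutants and 6425 to 7403 RPKM in the f/- libraries. The sum of 11 granulosa and cumulus markers was 20.6 to 32.0 RPKM in mutants and 19.8 to 28.5 RPKM in f/- libraries, with Foxl2, Has2 and Ptx3 under 0.5 RPKM in all 6. The sum of 7 theca and stroma markers was 0.956 to 3.91 and 1.55 to 3.86 RPKM, with Cyp17a1 at 0. The sum of 8 blood, immune and endothelial markers was lower in mutants, 21.99 to 41.87 RPKM against 44.53 to 48.19 RPKM, while Hba-a1, Hbb-b1 and Ptprc were at 0 throughout. Its members were mixed. Pecam1 (mean 13.7 against 24.9 RPKM), C1qb and Tie1 were lower in mutants, and Cd68 (3.77 against 2.27 RPKM) and Kdr (1.15 against 0.235 RPKM) were higher. Of the genes in these marker sets, Gdf9 alone passed the test.

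The f/- libraries differed from each other more than any pair of mutants did. They differed by at least 1 log2 unit in 27.1% of the tested genes, against 8.47% to 24.6% for the pairs of mutants and 0.933% to 3.35% for the pairs of f/+; Zp3-cre libraries. The f/- replicate 2 library lay at least 1 log2 unit above all 9 other libraries for 202 genes and below them for 314. The same counts were 123 and 41 for f/- replicate 1, 200 and 145 for mutant replicate 2, 128 and 98 for mutant replicate 4, and at most 36 and 7 for the other mutants. An extreme case, chosen after its values were seen, is Ptprf, a receptor tyrosine phosphatase, at 436 RPKM in f/- replicate 2 and 6.43 RPKM in replicate 1, with the other 8 libraries between 4.14 and 7.75 RPKM. In pooled oocytes, fewer cells that express a gene and less RNA per cell cannot be told apart.

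Most of the genes that passed the test were higher in the mutants. Of 11364 genes, 102 (0.898%) passed, 86 of them higher (0.757%) and 16 lower (0.141%). The higher genes are not all separate loci. Lbhd1 and Triobp each overlap another of them, and Mef2b is counted again under a joined symbol, so these calls may rest on shared reads. Without adjustment, 1444 genes had a p below 0.05. All 102 genes past the test were separated. The genes that rose were often low without Cre: their median level was 2.97 RPKM in f/- oocytes and 18.7 RPKM in mutants. An f/- mean under 1 RPKM was held by 32 of the 86 (37.2%), against 14.5% of all genes tested. The selection partly fixes this contrast. A gene low in f/- reaches the level for testing mainly where the mutants are high, and the f/- level is itself part of the change. Changes of 2 log2 units or more were seen in 50 of the 86 higher genes and in 10 of the 16 lower genes. The median absolute changes were 2.46 and 2.63. The genes that fell had a median of 12.5 RPKM in f/- oocytes and 1.69 RPKM in mutants.

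These counts depend on single libraries. Without f/- replicate 2 there were 24 higher and 1 lower, and without f/- replicate 1 there were 141 and 36. Leaving out mutant replicate 1, 2, 3 or 4 left 25, 34, 24 or 50 higher and 1, 1, 0 or 4 lower (limma); where the lower count was 0, 1119 genes had an unadjusted p below 0.05. With only 2 f/- libraries, 22.8% of all genes were separated, 1567 with the mutants above (13.8%) and 1024 with the mutants below (9.01%), so separation by itself is common. The gap, the distance between the nearest libraries of the groups, was at least 2 log2 units for 34 genes with the mutants above and for 7 with the mutants below.

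**Figure D1:**
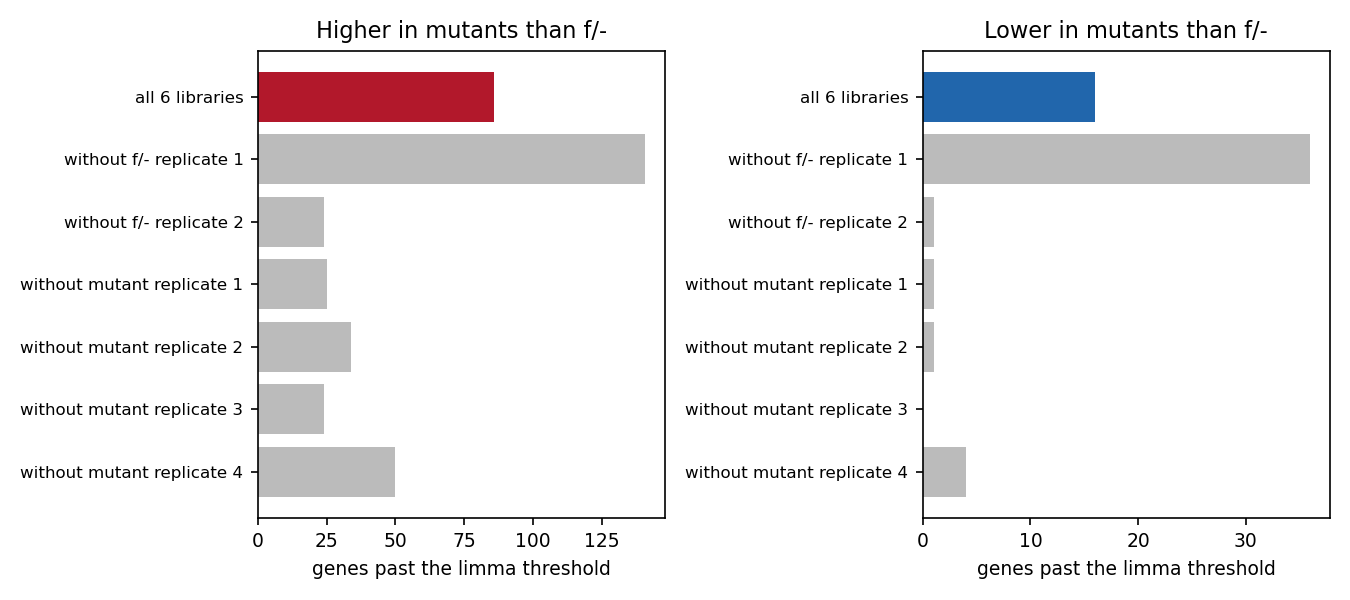
Number of genes higher and lower in the mutants (limma, adjusted p below 0.05) with all 6 libraries and with each library left out. With all libraries there were 86 and 16. Leaving out f/- replicate 1 raised both counts, and leaving out any other library lowered both.

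**Figure D2:**
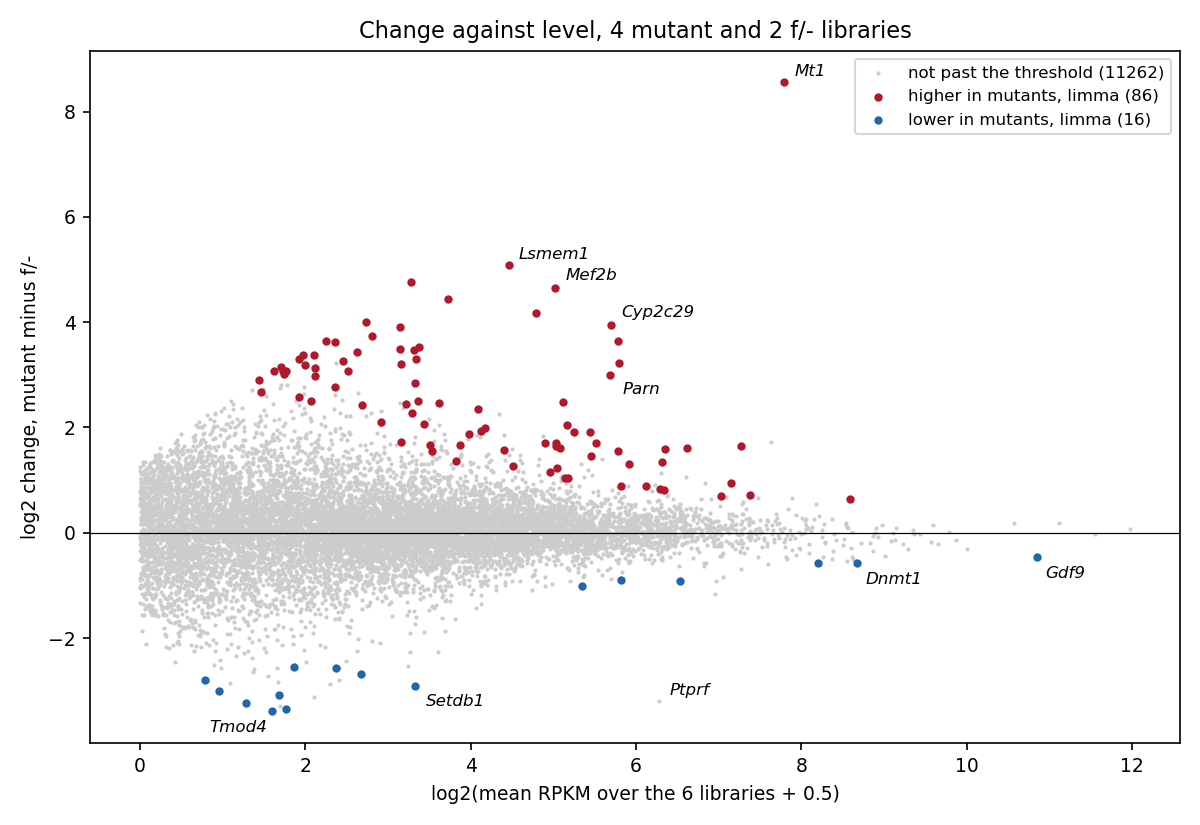
Change in the mutants (mean log2(RPKM + 0.5) of 4 mutants minus that of 2 f/- libraries, vertical axis) against the mean level over the 6 libraries (horizontal axis), 1 point per tested gene, with the 86 genes that rose and the 16 that fell marked. The largest increases exceed the largest decreases, and Mt1 stands apart at 8.56. The median absolute change was 2.46 for the genes that rose and 2.63 for those that fell.

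Leaving out predicted genes and small RNAs, the 12 genes past the test with the widest gap in the upward direction were Mt1, Ifi27l2a, Lsmem1, Mef2b, Cyp2c29, Bglap3, Slc38a1, Stox1, Adam5, Gng10, Clrn3 and Tulp2. Several are known from other tissues: Cyp2c29 is a liver cytochrome P450, Bglap3 belongs to the osteocalcin family of bone, and Adam5 is known from testis.

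Mt1 encodes a metallothionein, a small protein that binds zinc and copper. It was measured at 334, 408, 279 and 308 RPKM in the mutants and at 0.321 and 0.432 RPKM in the f/- libraries. The change of 8.56 ± 0.20 was the largest of all tested genes (limma, adjusted p = 3.883e-09). The f/+; Zp3-cre libraries held 116, 124, 176 and 10.4 RPKM, below every mutant and above both f/- libraries. Mt1 was therefore higher in each of the 8 libraries with Cre than in either library without it. Whether the reads counted for Mt1 came from the gene itself or from transgene sequence was not tested. In a model with all 3 groups, mutants exceeded f/+; Zp3-cre by 2.18 (limma, adjusted p = 0.0850) and f/+; Zp3-cre exceeded f/- by 6.38 (limma, adjusted p = 0.0136). The neighbouring metallothionein genes did not share the pattern: Mt2 reached at most 1.02 RPKM in any of the 10 libraries, Mt3 was at 0 in these 6, and the mutant and f/- values of Mt4 overlapped. Mt1 lies at chr8:94179082-94180327 on the plus strand (GRCm38).

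Ifi27l2a, a gene of the interferon-inducible Ifi27 family, held 18.0, 10.5, 18.0 and 8.68 RPKM in the mutants, and both f/- libraries list it at 0 (limma, adjusted p = 0.000824). No fold change is given against a group at 0. The f/+; Zp3-cre libraries held at most 0.0647 RPKM. Lsmem1, a single-pass membrane protein gene, was at 30.1, 37.2, 34.3 and 26.2 RPKM in mutants and at 1.08 and 0.0681 RPKM in f/- libraries, a change of 5.09 ± 0.40 (limma, adjusted p = 0.000210). The f/- values differ by more than 10-fold, yet both lie far below every mutant, and the f/+; Zp3-cre libraries held 0.508 to 0.753 RPKM.

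Mef2b, a MADS-box transcription factor, was at 54.2, 50.4, 42.8 and 41.4 RPKM in mutants against 2.00 and 0.943 RPKM (change 4.64 ± 0.29; limma, adjusted p = 4.929e-05). Exons of Borcs8 overlap it on the same strand, so some of these reads may belong to Borcs8. Cyp2c29 was at 68.3, 94.3, 84.8 and 51.6 RPKM against 4.23 and 4.31 RPKM (change 3.94 ± 0.26; limma, adjusted p = 5.720e-05). It lies at chr19:39269405-39330713 on the plus strand (GRCm38), and the pseudogene Cyp2c53-ps lies 12307 bases away. Cyp2c53-ps also rose (limma, adjusted p = 0.0337), but not in the model with all 3 groups (limma, adjusted p = 0.318). Its f/+; Zp3-cre values were 3.72, 2.76, 42.3 and 36.1 RPKM. In the f/+; Zp3-cre libraries Mef2b held 1.86 to 3.01 RPKM and Cyp2c29 held 3.73 to 6.54 RPKM, close to the f/- level for both.

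Slc38a1, a neutral amino acid transporter, was at 12.7, 11.6, 12.2 and 12.5 RPKM in mutants against 0.518 and 0.755 RPKM (change 3.50 ± 0.35; limma, adjusted p = 0.00111). Bglap3 was at 20.5, 26.7, 14.2 and 14.1 RPKM against 0.913 and 0.0193 RPKM, and the transcription factor Stox1 was at 12.1, 5.77, 8.61 and 10.4 RPKM against 0.154 and 0.0266 RPKM. In each of these 3 genes the lowest mutant lay more than 10-fold above the higher f/- library. The remaining 4 were also separated: Adam5 at 5.49 to 9.45, Gng10 (a G protein gamma subunit, overlapped by Gm20503) at 13.3 to 16.0, Clrn3 at 3.31 to 7.66 and Tulp2 at 3.22 to 9.55 RPKM in mutants, with no f/- value above 1.21 RPKM. Tulp2 is overlapped on the opposite strand by Dhdh and Ppp1r15a.

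Promoter windows of RefSeq (GRCm38.p6, 250 bases before to 50 after the start) were held for 9 of these 12 genes and ranged from 2 to 27 CG dinucleotides on average per gene, with a median of 8. The median over all 32851 windows was 7, and 23.3% had 2 or fewer. Among the tested genes with a window (79.3%) the median was 20.5, and among those with an f/- mean below 1 RPKM (75.2% with a window) it was 16.0. These shares, like the 9 of 12, are under the 80% set for such checks. The medians are therefore given as a description, and no comparison between them is drawn. The windows of 3 genes are printed because all 3 rose to well above the f/- level while their promoters range from CG-poor to CG-rich. CG is the letter pair searched, which reads the same on both strands and can carry DNA methylation. It occurs in 94.6% of all windows. Capitals mark CG, and each window reads 5′ to 3′ on the gene's strand. Cyp2c29 (chr19:39286835-39287134, plus strand) holds 2 CG, Lsmem1 (chr12:40199266-40199565, minus strand) 8 and Stox1 (chr10:62726045-62726344, minus strand) 25.
Cyp2c29: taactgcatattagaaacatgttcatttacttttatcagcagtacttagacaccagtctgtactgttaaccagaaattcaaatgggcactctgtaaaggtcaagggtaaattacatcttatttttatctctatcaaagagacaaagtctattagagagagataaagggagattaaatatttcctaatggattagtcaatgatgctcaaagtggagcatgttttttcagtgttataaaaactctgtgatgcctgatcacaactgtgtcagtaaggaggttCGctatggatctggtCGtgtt
Lsmem1: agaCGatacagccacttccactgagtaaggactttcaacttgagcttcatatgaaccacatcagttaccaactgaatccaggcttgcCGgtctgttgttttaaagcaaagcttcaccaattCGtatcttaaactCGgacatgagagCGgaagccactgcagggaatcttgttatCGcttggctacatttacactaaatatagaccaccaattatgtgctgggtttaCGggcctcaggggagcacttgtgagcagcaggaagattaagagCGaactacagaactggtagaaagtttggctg
Stox1: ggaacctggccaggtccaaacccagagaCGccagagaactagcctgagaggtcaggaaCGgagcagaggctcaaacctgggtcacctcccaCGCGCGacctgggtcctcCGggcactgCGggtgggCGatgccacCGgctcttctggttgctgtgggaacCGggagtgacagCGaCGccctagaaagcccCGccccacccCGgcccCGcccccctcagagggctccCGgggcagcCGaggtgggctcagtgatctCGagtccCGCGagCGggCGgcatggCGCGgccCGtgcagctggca

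Other genes past the test, chosen after their values were seen, were higher to begin with. Hpse, heparanase, was at 78.2, 58.4, 83.0 and 94.9 RPKM in mutants against 7.81 and 4.23 RPKM (change 3.64 ± 0.27; limma, adjusted p = 0.000139). Wdr70, a WD-repeat gene, was at 70.8, 88.3, 74.7 and 79.3 RPKM against 13.5 and 4.56 RPKM (change 3.22 ± 0.33; limma, adjusted p = 0.00131). Parn, a ribonuclease that removes poly(A) tails, was at 75.2, 85.7, 68.0 and 58.8 RPKM against 12.6 and 5.68 RPKM (change 2.99 ± 0.29; limma, adjusted p = 0.000982). In all 3 the f/- replicate 1 library was the higher of the pair, and the lowest mutant still lay more than 4-fold above it. A further 4 genes rose from low levels: Tnfsf10 (the death ligand TRAIL) to 4.75 ± 0.81, Card9 (an innate immune adaptor) to 4.21 ± 2.13, Traf3ip2 to 5.67 ± 1.83 and the kinase Lrrk2 to 4.22 ± 0.51 RPKM (SD, n = 4), each under 0.5 RPKM in both f/- libraries. Exons of other genes overlap Lsmem1, Card9 and Traf3ip2 on the opposite strand.

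**Figure D3:**
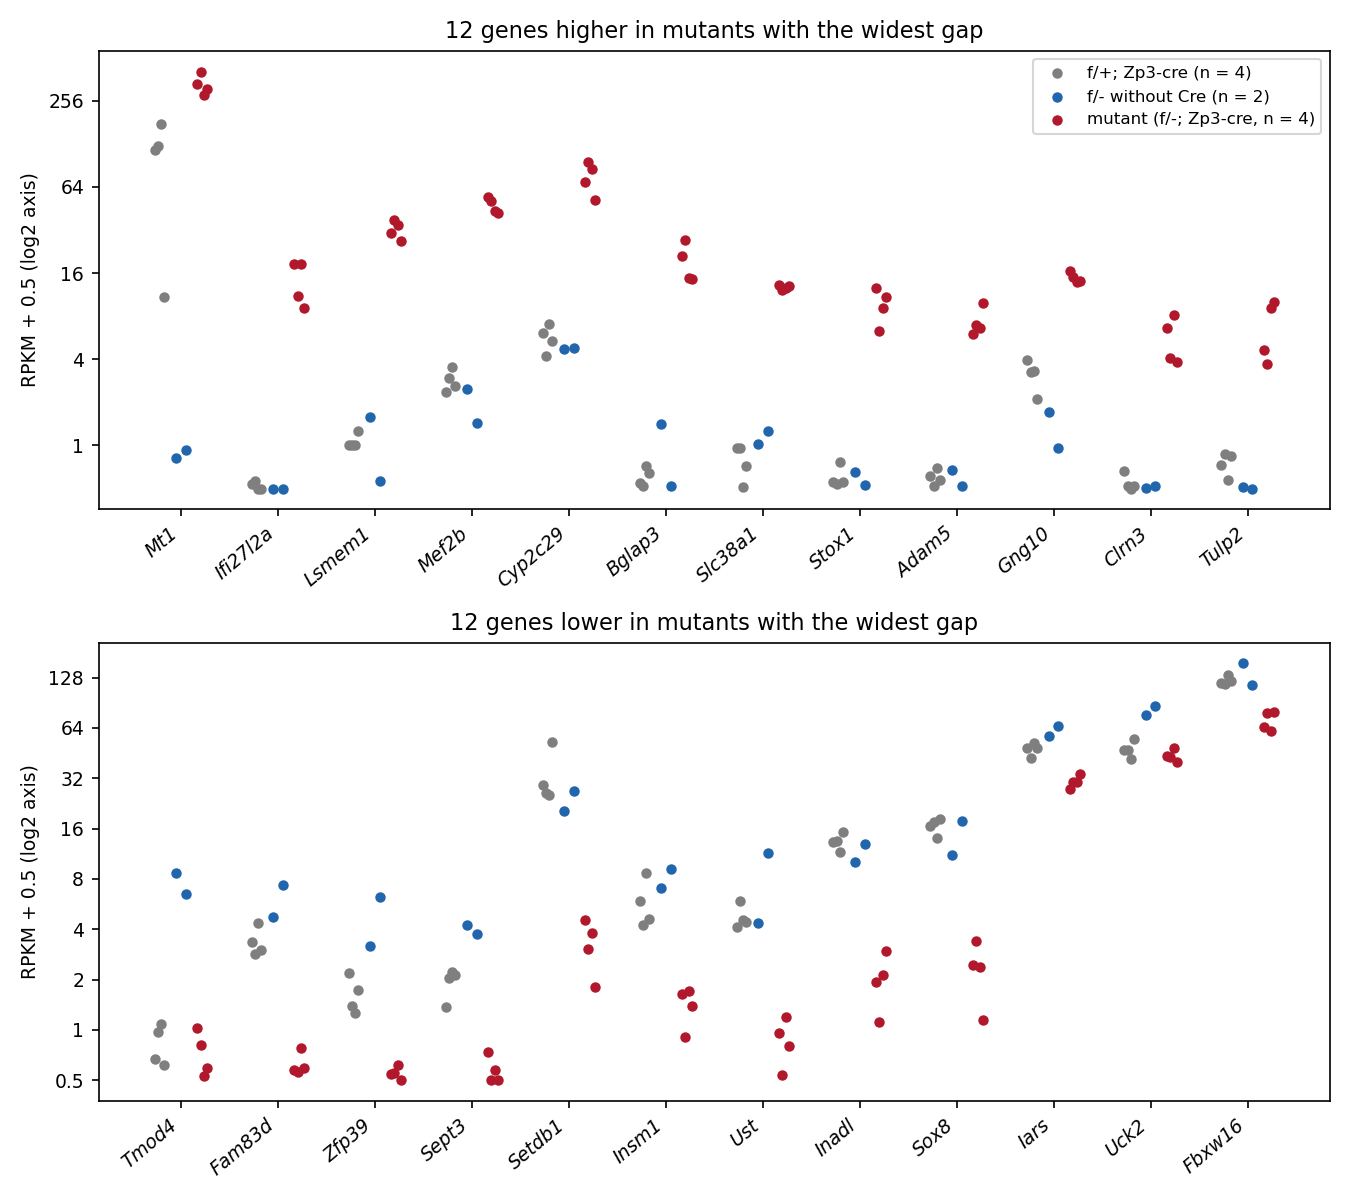
Level of the 12 named genes that rose (top) and the 12 that fell (bottom) in each library (RPKM + 0.5 on a log2 axis), with the 4 mutants, the 2 f/- and the 4 f/+; Zp3-cre libraries as separate points. For each gene the mutants lie on one side of both f/- libraries. The f/+; Zp3-cre libraries lie at the level of the mutants for Tmod4 and Uck2. They lie between the groups for Mt1, Gng10, Tulp2, Fam83d, Zfp39, Sept3 and Iars.

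Read as switches, 58 genes were below 0.5 RPKM in both f/- libraries and at 1 RPKM or more in all 4 mutants, and 21 of them passed the test. The reverse held for 24 genes, of which 4 passed. The first class asks for a floor in 4 libraries and the second in 2, so the counts are not to be set against each other. Of the 58, 27 were below 0.5 RPKM in all f/+; Zp3-cre libraries as well and 8 were at 1 RPKM or more in all of them.

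Among the named genes that fell, the widest gap belonged to Tmod4, a tropomodulin that caps actin filaments in muscle. It was at 8.24 and 5.98 RPKM in f/- libraries and at 0.526, 0.315, 0.0295 and 0.0962 RPKM in mutants (change -3.39 ± 0.54; limma, adjusted p = 0.0186). The call was lost in 7 of 17 alternative analyses (limma, adjusted p from 0.000889 to 0.111), among them each with 1 library left out except mutant replicate 4. The f/+; Zp3-cre libraries held 0.170, 0.472, 0.585 and 0.117 RPKM, overlapping the mutants. Mutants minus f/+; Zp3-cre was -0.18 (limma, model of 3 groups, adjusted p = 0.832), and f/+; Zp3-cre minus f/- was -3.21 (limma, adjusted p = 0.0151). Low Tmod4 was thus seen in both groups with Cre. The gene lies at chr3:95124476-95129209 on the plus strand (GRCm38), near Setdb1 on the same chromosome. The part of this nearness in the levels of Tmod4 was not tested.

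Fam83d, which brings casein kinase 1 to the spindle, was at 4.23 and 6.84 RPKM in f/- libraries and at 0.0794, 0.0630, 0.284 and 0.0906 RPKM in mutants (change -3.24 ± 0.54; limma, adjusted p = 0.0222). Here f/+; Zp3-cre held 2.36 to 3.88 RPKM, between the groups. Zfp39 (a zinc finger gene), Sept3 (a septin), Insm1 and Sox8 (transcription factors), Ust (a sulfotransferase) and Inadl (a cell junction scaffold) also fell. Their f/- means ran from 3.50 to 13.99 RPKM and their mutant means from 0.0547 to 1.85 RPKM. Sox8 and Inadl had means of 16.13 and 12.97 RPKM in f/+; Zp3-cre, beside 13.99 and 11.01 RPKM in f/-. Zfp39 and Sept3 had f/+; Zp3-cre means of 1.14 and 1.44 RPKM, with every library of that group between mutants and f/-. For Insm1 and Ust the f/+; Zp3-cre values overlapped those of f/-. Exons of other genes overlap Sox8, Zfp39, Uck2 and Fbxw16 on the opposite strand.

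Among the genes past the test, well-expressed ones fell by less. The test partly fixes this, because the SE was larger for low genes, such as 0.56 for Zfp39 against 0.18 for Iars. A low gene could therefore pass only with a large change. Iars, isoleucyl-tRNA synthetase, was at 30.1 ± 2.65 RPKM (SD, n = 4) against 56.5 and 65.2 RPKM. Uck2, a pyrimidine nucleoside kinase, was at 43.3 ± 3.71 RPKM against 76.0 and 85.7 RPKM, and f/+; Zp3-cre was at 47.3 ± 5.54 RPKM, beside the mutants. Fbxw16 was at 71.0 ± 9.38 RPKM against 155 and 115 RPKM. Each of the 12 named decreases (Tmod4, Fam83d, Zfp39, Sept3, Setdb1, Insm1, Ust, Inadl, Sox8, Iars, Uck2 and Fbxw16) lost its call in at least 1 alternative analysis.

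Of the pathway of SETDB1 itself, 30 listed genes for H3K9 methylation and its partners were tested, and Setdb1 was the only one past the test. The list's median change was 0.12, beside 0.07 over all genes, and ran from 0.05 to 0.18 with 1 library left out, being lowest without f/- replicate 2 and highest without mutant replicate 2. The SETDB1 partner Atf7ip was at 60.6 against 38.9 RPKM (mean of mutants against mean of f/-; limma, adjusted p = 0.242), and the H3K9 methyltransferase Suv39h1 was at 20.4 against 31.7 RPKM (limma, adjusted p = 0.255). Neither passed, although each was separated.

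Dnmt1, which copies DNA methylation after replication, fell. It was at 331, 332, 373 and 367 RPKM in mutants and at 509 and 538 RPKM in f/- libraries (change -0.58 ± 0.10; limma, adjusted p = 0.0328). The call was lost in 11 of 17 alternative analyses (limma, adjusted p from 0.00635 to 0.382), including each with 1 library left out. The f/+; Zp3-cre mean was 509.7 ± 39.5 RPKM (SD, n = 4), beside f/-. Of 13 tested genes for DNA methylation and TET enzymes it was the only one past the test, 5 were separated with the mutants below (9.01% of all genes were), and the median change was -0.39. That median was -0.22 without f/- replicate 1, -0.18 without f/- replicate 2 and -0.23 without mutant replicate 2. Dnmt3l, the cofactor of the de novo methyltransferases in oocytes, was at 26.6 against 38.0 RPKM (limma, adjusted p = 0.373).

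Genes listed for the egg coat and egg surface did not pass the test in these 6 libraries. Of 10 genes on this list, 7 had all mutants below both f/- libraries, where 9.01% of all genes did. The median change was -0.51 (0 past limma's test, 7 with an unadjusted p below 0.05). The 7 include Tle6, counted again among the maternal-effect genes, and Zp3r, named for a receptor of Zp3 and not a coat protein. They also include Cd81, with means of 0.333 RPKM in mutants and 3.48 RPKM in f/-. In Cd9, Izumo1r and Oosp1 the groups overlapped, and the change of Oosp1 was 0.14. Zp1 was at 344, 370, 358 and 326 RPKM in mutants and at 472 and 484 RPKM in f/- libraries (limma, adjusted p = 0.0800). Zp3 was at 922, 986, 925 and 971 RPKM against 1236 and 1136 RPKM (limma, adjusted p = 0.139). In the model of 3 groups, which shares the spread of all 10 libraries, Zp1 (limma, adjusted p = 0.0178), Astl (0.0281) and Tle6 (0.0391) were lower in mutants than in f/-. The f/+; Zp3-cre means were 368 ± 24.3 RPKM for Zp1 and 957 ± 69.1 RPKM for Zp3 (SD, n = 4), beside the mutants and below both f/- libraries. Other members differed from this: Zp2 was at 434 ± 93.0 RPKM in f/+; Zp3-cre against 346 ± 29.1 RPKM in mutants (SD, n = 4) and 546 and 435 RPKM in f/-, with f/+; Zp3-cre replicate 3 at 567.5 RPKM above all of them. The low Zp3r had means of 1.91 RPKM in f/+; Zp3-cre, 1.68 RPKM in f/- and 0.359 RPKM in mutants. The summed blood, immune and endothelial markers were lower in the mutants too, though Cd68 and Kdr were higher in the mean. The part of these markers in this was not tested. The list's median was -0.40 without f/- replicate 1 and -0.76 without f/- replicate 2.

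Gdf9, the growth factor by which the oocyte acts on granulosa cells, fell, from 2438 and 2100 RPKM in f/- libraries to 1639, 1560, 1632 and 1747 RPKM in mutants (change -0.46 ± 0.09; limma, adjusted p = 0.0391). The call was lost in 13 of 17 alternative analyses (limma, adjusted p from 0.0138 to 0.566), again including each with 1 library left out. In f/+; Zp3-cre it ranged from 1531 to 2432 RPKM and so reached into both groups. Its relative Bmp15 was at 654 ± 29.7 RPKM in mutants (SD, n = 4) against 756 and 589 RPKM, so the groups overlapped. Of 17 oocyte growth and transcription factors, Gdf9 alone passed. The receptor Kit was at 40.01 against 73.64 RPKM (limma, adjusted p = 0.0805). Of 22 maternal-effect genes none passed (limma; 6 with an unadjusted p below 0.05), with a median of -0.09, which was 0.04 without f/- replicate 1 and -0.19 without f/- replicate 2.

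Genes of the meiotic machinery were taken in short lists, in which the share of all genes (0.898%) amounts to less than 1 gene each. The counts past the test therefore show neither a difference from genes at large nor a likeness to them. Of 33 genes for CDK1 control none passed (limma; 2 with an unadjusted p below 0.05), and of 28 for cAMP and protein kinase A none passed (limma; 5 unadjusted). Among 41 spindle and checkpoint genes Fam83d was the only one past the test. Among 35 cohesin, condensin and axis genes Ncapg, a condensin I subunit, rose, at 86.4, 104, 102 and 83.0 RPKM against 52.1 and 54.3 RPKM (change 0.81 ± 0.16; limma, adjusted p = 0.0460). Lcorl overlaps it on the opposite strand. The call was lost in 14 of 17 alternative analyses (limma, adjusted p from 0.00396 to 0.266), including each with 1 library left out. None of 40 DNA damage genes passed (limma; 4 unadjusted).

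The Cyp and Zfp families were taken by symbol. Of 24 tested Cyp genes, out of 94 listed, Cyp2c29 and Cyp2c55 rose, beside 0.757% of all genes. Of the 24, 9 were separated with the mutants above (13.8% of all genes). The median change was 0.77, the highest of the lists, and 1.25 without f/- replicate 1. Several of the 9, among them Cyp2c55, Cyp2c39 and Cyp2c66, reached the level for testing only through the mutants. The filter thus favours a high share and a high median here, and neither is a result about the family. Further Cyp2c genes on chromosome 19 were near 0 in f/- and higher in mutants without passing: Cyp2c66 at 4.09 RPKM (limma, adjusted p = 0.165) and Cyp2c39 at 1.66 RPKM (limma, adjusted p = 0.139) in the mean. Cyp2c genes are similar in sequence, and reads may be split among them. Of 239 Zfp genes, which include many KRAB zinc finger genes, Zfp58 and Zfp763 rose and Zfp39 fell, a share near the 0.898% of all genes, and the median change was 0.11. Zfp58 was at 116, 81.4, 91.1 and 129 RPKM against 33.3 and 34.0 RPKM (change 1.60 ± 0.20; limma, adjusted p = 0.00503), and Gm26965 overlaps it on the same strand.

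In lists of this size a share of 0.898%, that of all genes, amounts to less than 1 gene, so counts of 0 say little about the lists below. Of 7 two-cell-stage and MERVL-linked genes that reached the level for testing, out of 37 listed, none passed (limma; 1 unadjusted). None of 31 germline genes passed (limma; 5 unadjusted), and none of 23 imprinted genes did (limma; 2 unadjusted). The imprinted median of -0.14 was -0.42 without f/- replicate 1 and 0.08 without mutant replicate 2, so it has no settled sign. Of 70 cytosolic ribosomal protein genes none passed (limma; 9 unadjusted) and 15 were separated with the mutants above, which is 21.4% of them beside 13.8% of all genes, with a median of 0.35. That median was 0.53 without f/- replicate 1 and 0.13 without f/- replicate 2. The 24 replication-type histone genes had none past the test (limma; 6 unadjusted) and a median of 0.31, which was -0.03 without f/- replicate 1 and 0.68 without f/- replicate 2. Among 28 genes for storing and degrading maternal mRNA Parn alone passed, and among 5 Slc38 transporters Slc38a1 alone did. None passed among 75 mitochondrial ribosomal protein genes (limma; 10 unadjusted) or 33 proteasome subunit genes (limma; 7 unadjusted). The mitochondrial ribosomal median of 0.10 was 0.32 without f/- replicate 1 and -0.02 without f/- replicate 2, and the proteasome median of 0.17 was 0.02 without f/- replicate 2.

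**Figure D4:**
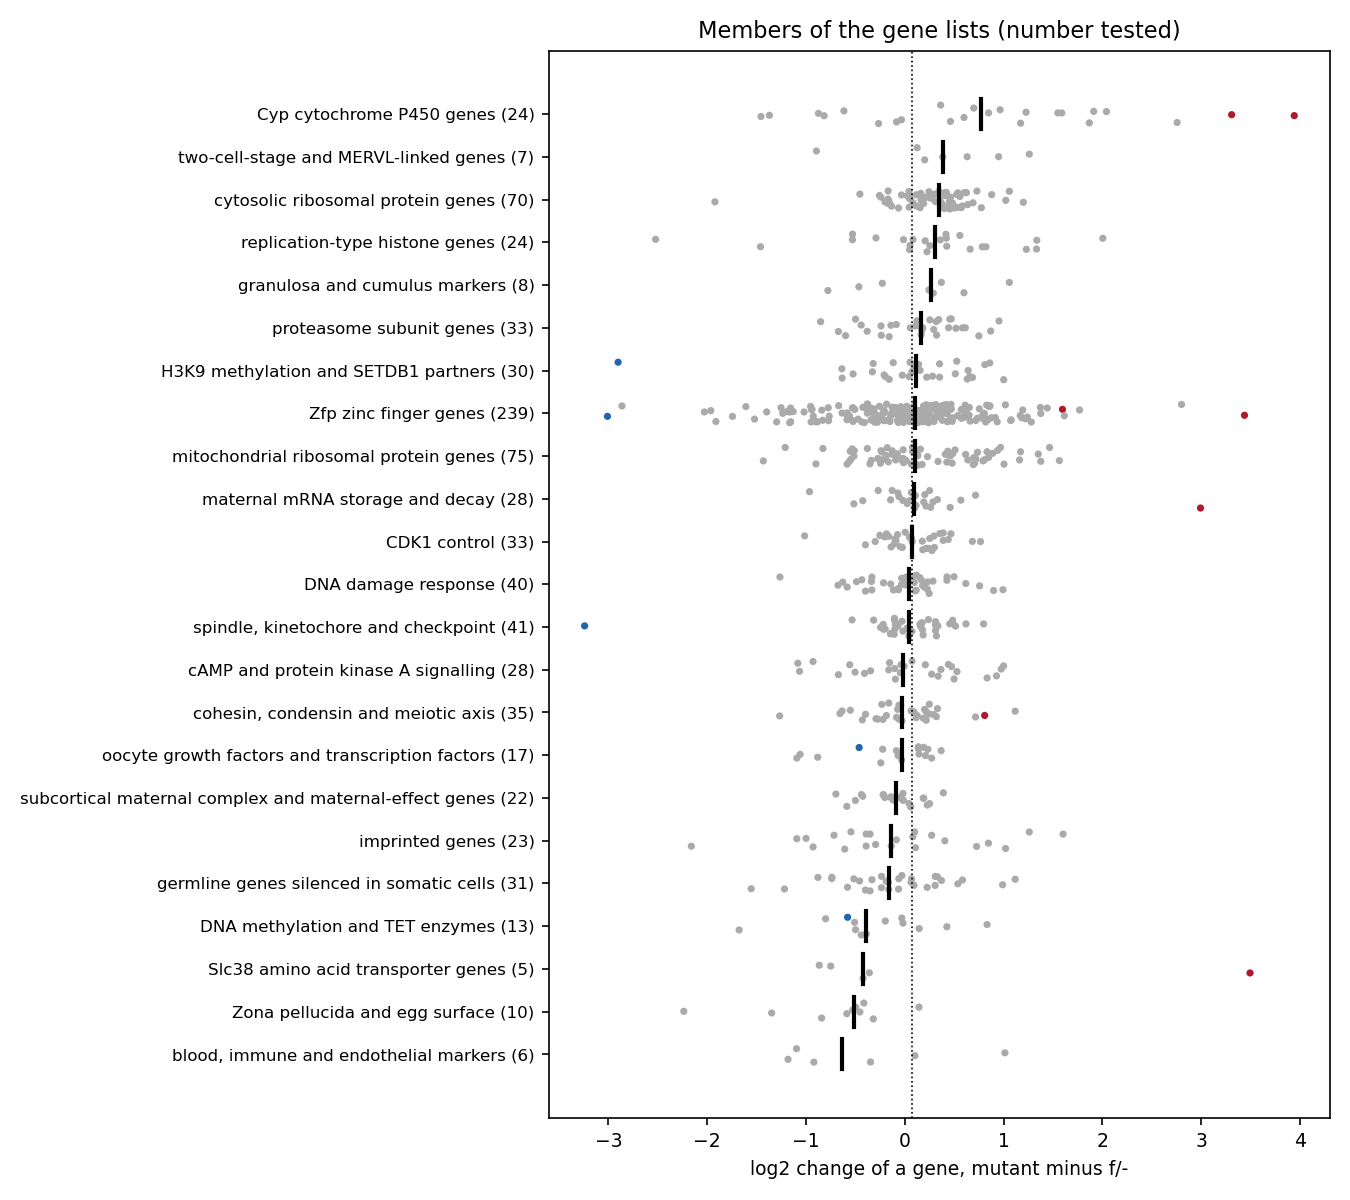
Changes (mutant minus f/-, log2(RPKM + 0.5)) of the tested members of each gene list, 1 point per gene, with the median of each list and that of all tested genes (0.07). Red and blue points are genes that rose or fell. The zona pellucida and egg surface genes have a median of -0.51 and the Cyp genes 0.77.

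The position of the f/+; Zp3-cre libraries is given as a description, since the distances share the mutant and f/- values with the comparison. Of the 86 genes that rose, the f/+; Zp3-cre mean was nearer to f/- for 68 and nearer to the mutants for 18, which include Mt1 and Ncapg. All 4 f/+; Zp3-cre libraries lay on the f/- side of every mutant for 77. Of the 16 that fell, 13 were nearer to f/-, and the 3 nearer to the mutants were Tmod4, Uck2 and Gdf9. Other genes held the same position without passing the test, among them Zp1, Zp3, Npm2, Astl and Suv39h1. The share of all tested genes that did so is not given here.

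**Figure D5:**
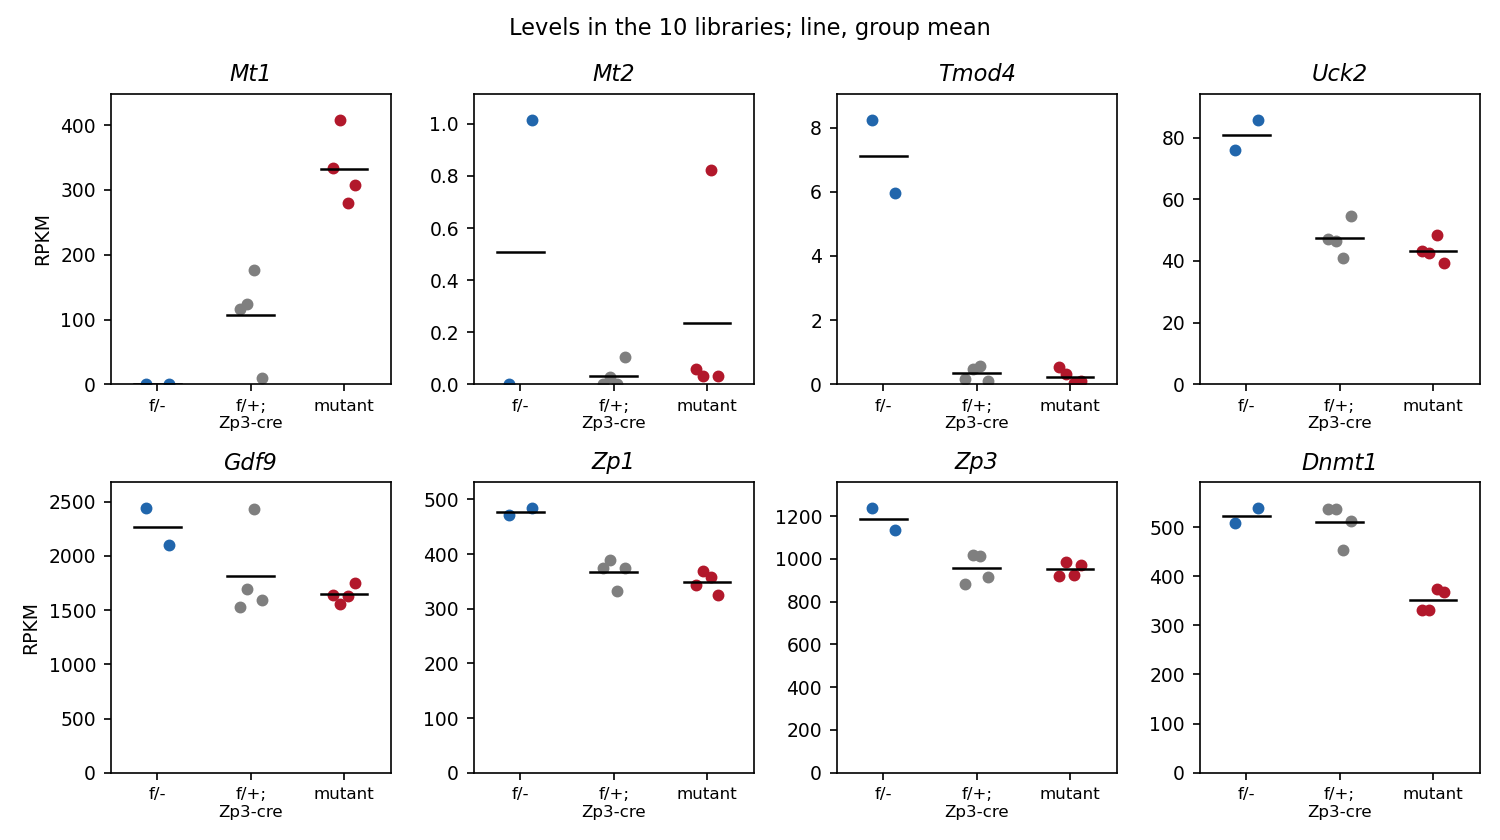
RPKM of Mt1, Mt2, Tmod4, Uck2, Gdf9, Zp1, Zp3 and Dnmt1 in the f/-, f/+; Zp3-cre and mutant libraries, 1 point per library, with a line at each group mean and an axis from 0. The f/+; Zp3-cre libraries sit with the mutants for Tmod4, Uck2, Zp1 and Zp3, with f/- for Dnmt1, and between the groups for Mt1.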

How the data were processed

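The deposited values are RPKM in 1 table of RefSeq transcripts, and each library has a column. STAR, bcl2fastq 1.8.3 and the build mm10 are listed in the submitters' processing notes. The counting of reads, multiply matching ones included, was not given in the sources used here. Per the labels' protocols, cDNA was amplified from small pools, which adds spread between libraries, and the library kit does not mark strand. Each library came from a separate mouse.

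Of the rows that share a symbol, the one with the highest mean over the 6 libraries was kept. Genes whose mean reached 0.5 RPKM were tested on log2(RPKM + 0.5), a scale that understates changes of low genes. The test was limma's moderated test (limma 3.58.1, R 4.3.3) with a mean-variance trend, 4 residual degrees of freedom and Benjamini-Hochberg adjustment over 11364 genes at 0.05. Comparisons with f/+; Zp3-cre came from a limma model of 3 groups over the same genes. The fit was tested on simulated data.

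Named genes are the 12 per direction with the widest gap among those past the test and at 1 RPKM or more in every library of the higher group, Setdb1, and up to 4 members of each list. Predicted genes and small RNAs were not named. The comparison and the lists were chosen with earlier results of these data known. Alternatives changed the pseudocount, level filter, scaling, weights, trend, groups, row choice and libraries.

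No read totals are in the table. The spacing of low values, with GENCODE transcript lengths for 97.7% of rows, gave about 45700000 to 72500000 reads per library, with 67.7% to 70.0% of low values within 0.1 of a whole read. At these totals, 10 reads on 2 kb are at most 0.109 RPKM, and values near that rest on few reads. Gene positions are from GENCODE on GRCm38. A comparison of promoter CG content between the genes that rose and all tested genes was treated as void, because windows cover 76.7% and 79.3% of them, under the 80% set for such checks.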

Additional observations from a re-analysis of the deposited data

Results flagged for a closer look

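Groups of 4 libraries were checked for a value that stands apart from the other 3 (gap to the nearest value over the range, above the 95% limit of Dixon's test), for the 24 named genes in mutants and in f/+; Zp3-cre. Of 48 such groups, 5 were marked, where chance marks about 1 in 20. Setdb1 was at 52.5 RPKM in f/+; Zp3-cre replicate 4, above the other 3 libraries of that group. The next 3 values in f/+; Zp3-cre were at low levels: Lsmem1 at 0.753 RPKM in replicate 4, Stox1 at 0.262 RPKM in replicate 3 and Clrn3 at 0.162 RPKM in replicate 1. In the mutants, Fam83d was at 0.284 RPKM in replicate 3. Groups of 2 libraries, such as f/-, could not be checked.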

How the results depend on the processing

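The number of genes past the test moved most. Against 86 higher and 16 lower, there were 16 and 6 with no level filter, 365 and 176 with all 3 groups in the model (67.5% higher, against 84.3%), 55 and 3 with array weights and 51 and 10 without the trend. Lower genes numbered 10 with a pseudocount of 0.1 and 8 with rows of a symbol summed. Leaving out 1 library gave 24 to 141 higher and 0 to 36 lower, and 1805 to 3907 genes separated above and 1275 to 2766 below; with 1 f/- library left, it is assumed to vary like the mutants. Setdb1 ranged from -3.10 to -2.64 when 1 library was left out, but its call was lost in 5 of 17 settings. Among the named increases, 7 of 12 kept their call in all 17 settings: Mt1, Ifi27l2a, Lsmem1, Mef2b, Cyp2c29, Slc38a1 and Gng10. None of the 12 named decreases did. No named change reversed. Quantile scaling moved the median change of all genes from 0.07 to -0.003.

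Mutant and f/- libraries share numbers 1 and 2, and the deviations of same-numbered libraries correlated at -0.0082 and 0.0071 across genes. These values show no pairing by number, but both rest on the same difference between the f/- libraries. A shared day or batch was not tested. A replicate block over the numbers gave 66 higher and 8 lower. Separation and the permutation test take no weights, trend or block. The medians of the lists without single libraries were chosen after seeing the data. Few reads limit values under about 0.109 RPKM.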
